A study of Mus musculus with 76 samples.

Results

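The genes described here are 10 genes of the Wnt pathway and the roof plate: the ligands Wnt1, Wnt3, Wnt3a, Wnt7b and Wnt8b, the Wnt target Axin2, the nuclear effector and target Lef1, the roof plate transcription factor Lmx1a, and the R-spondins Rspo1 and Rspo2. They were chosen by name, as ligands, targets and roof plate factors, from the 56923 genes of the count files. Their reads were counted in all 16 RNA samples, and the peaks at their promoters were read from the wild type lists of H3K4me3, H3K27ac, H3K27me3 and CTCF. The tissue was developing mouse diencephalon, the part of the forebrain that forms thalamus and hypothalamus, on a C57BL/6J background. Wild type embryos carried the mouse sequence of the enhancer hs754, and humanized embryos were homozygous for the human sequence in its place. The humanized line was made by Cas9 editing, and its founders were backcrossed to C57BL/6J. Each RNA sample was a pool of embryos from a single litter, with 6 embryos in a pool at E11.5 (E, embryonic day) and 3 in a pool at E17.5. Each genotype and stage had 4 RNA samples. Each histone mark had 2 wild type peak lists at the earlier stage and 3 at the later one, where CTCF also had 3. The comparisons ask how these genes change as the diencephalon matures, and whether they differ between the genotypes.

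Wnt proteins are secreted signals that bind Frizzled receptors with the coreceptors Lrp5 and Lrp6, and the canonical branch stabilizes beta-catenin, which enters the nucleus and acts with TCF/LEF factors on target genes such as Axin2. R-spondins strengthen the signal by removing the ubiquitin ligases Znrf3 and Rnf43 from the cell surface. In the embryonic neural tube the roof plate is a strip of dorsal midline cells, specified by Lmx1a and its relatives, that secretes Wnt and BMP proteins and patterns the dorsal tissue beside it. In the forebrain the dorsal midline also gives rise to the choroid plexus.

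Between 16414369 and 24272569 reads were counted on genes in a library. Diencephalon markers (Gbx2, Lhx2, Six3, Nkx2-1 and 7 others) summed to 444 to 721 CPM (the counts-per-million unit) over all 16 libraries. Telencephalon markers summed to 13.7 to 19.1 CPM at E11.5 and to 66.5 to 105 CPM at E17.5, and midbrain and hindbrain markers to 1.17 to 19.0 CPM. Hoxb2, a hindbrain gene, had at most 1 read in any library, but the midbrain and hindbrain sum varied widely within groups. Among humanized E11.5 libraries it ran from 1.17 CPM in replicate 1 to 19.0 CPM in replicate 2. Among wild type E11.5 libraries it ran from 2.38 to 14.8 CPM. E17.5 wild type replicate 1 stood apart. Its log2 expression differed from the other libraries of its group by a root mean square of 1.08, against 0.42 to 0.60 for the other E17.5 libraries. Calls and orders of levels that rest on it are given with and without it.

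All 10 genes had lower counts at E17.5 than at E11.5 in both genotypes. In wild type diencephalon 9 of the 10 fell, by the quasi-likelihood test of edgeR (Benjamini-Hochberg adjustment over all genes tested), against 26.7% of all 18583 genes tested that were called lower and 29.0% that were called higher. In humanized diencephalon all 10 fell, against 39.5% of 18781 genes called lower and 38.2% called higher. Wnt3 was the gene not called in wild type. The median log2 fold change of the 10 genes was -2.38 in wild type and -2.65 in humanized embryos, beside -0.01 and -0.04 over all genes tested. Without E17.5 wild type replicate 1, all 10 were called in wild type, where 36.3% of genes were called lower. These are bulk samples, in which fewer cells of a type and less RNA per cell cannot be told apart. The stages also differed in their cell makeup, as the marker genes given further on show.

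**Figure D1:**
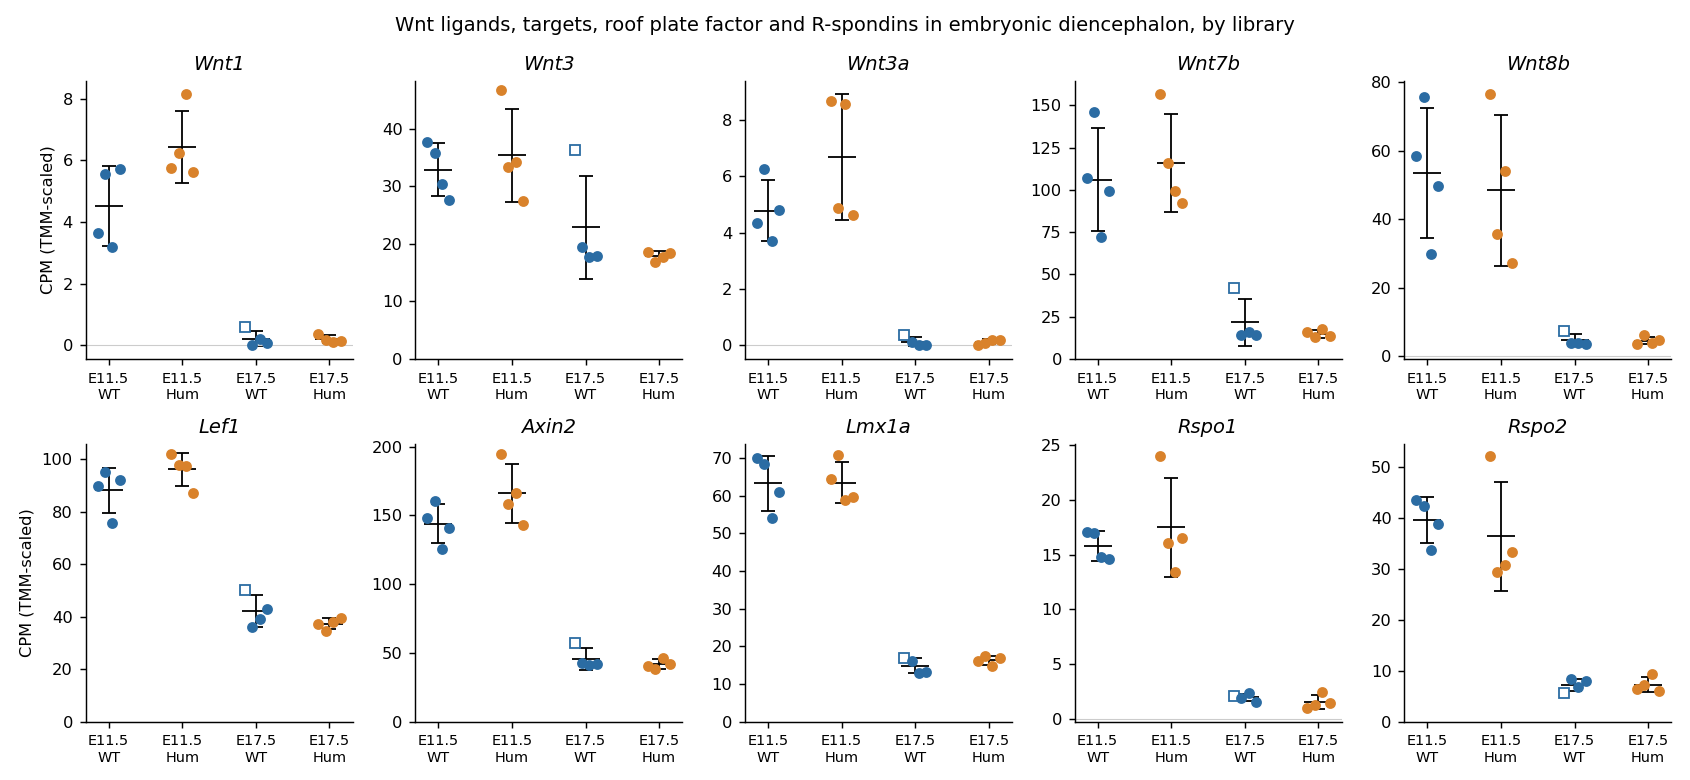
TMM-scaled counts-per-million values (y axis, linear) of the 10 genes in each of the 16 libraries, by stage and genotype (WT, wild type; Hum, humanized). Circles are libraries, the open square is E17.5 wild type replicate 1, and bars are the mean with its SD (n = 4); all genes except Wnt3 in wild type show E17.5 libraries wholly below the E11.5 libraries.

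Wnt1 and Wnt3a, the ligands most closely tied to the dorsal midline, had the largest log2 fold changes of the 10 genes. Wnt1 lies at chr15:98687738-98691718 (GRCm39, plus strand) and Wnt3a at chr11:59138859-59181584 (minus strand). Wnt1 had 71, 105, 63 and 141 reads in the 4 wild type libraries at E11.5, compared with 11, 0, 4 and 2 at E17.5. In humanized libraries it had 118, 139, 158 and 137 reads at E11.5, compared with 7, 3, 2 and 2 at E17.5. Each E11.5 library was far above every E17.5 library, and of the wild type E17.5 reads most came from replicate 1. The fitted log2 fold change of Wnt1 was -4.39 ± 0.62 (SE; adjusted p = 0.00015, edgeR) in wild type and -4.95 ± 0.32 (adjusted p = 4.62e-08, edgeR) in humanized embryos. Wnt3a had 85, 118, 73 and 119 reads in wild type at E11.5, but 7, 2, 0 and 0 at E17.5. In humanized libraries it had 179, 109, 166 and 113 reads at E11.5, but 0, 1, 3 and 3 at E17.5. Here too the stages did not overlap, and Wnt3a was close to the detection limit at E17.5 in both genotypes. Its log2 fold change was -5.34 ± 0.67 (adjusted p = 6.68e-05, edgeR) in wild type and -5.95 ± 0.47 (adjusted p = 2.41e-07, edgeR) in humanized embryos. With so few reads at E17.5 these sizes rest on single reads and on replicate 1, without which the wild type values were -5.49 for Wnt1 and -6.98 for Wnt3a. Wnt1 shares 2308 bp with Wnt10b on the opposite strand, which had 1 to 17 reads in all libraries. Counted with strand, Wnt1 kept nearly all of its E11.5 reads but few of its E17.5 reads, which became 5, 0, 1 and 1 in wild type and 0, 2, 0 and 1 in humanized libraries. The log2 fold change of Wnt1 with strand was -5.6 ± 0.57 (adjusted p = 1.59e-05, edgeR) in wild type and -6.95 ± 0.45 (adjusted p = 6.58e-08, edgeR) in humanized embryos.

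Wnt7b, a ligand of forebrain neuroepithelium and vessels, and Wnt8b, a ligand of the dorsal forebrain midline and the hypothalamus, also fell. Wnt7b (chr15:85419638-85466674, minus strand) stood at 107, 146, 71.9 and 99.1 CPM in wild type at E11.5 and at 42.0, 13.9, 15.9 and 14.3 CPM at E17.5. Its humanized libraries stood at 157, 116, 99.2 and 92.2 CPM and then at 16.1, 12.8, 17.6 and 13.4 CPM. Every E17.5 library was below every E11.5 library, with wild type replicate 1 well above the other E17.5 values. The log2 fold change was -2.31 ± 0.39 (adjusted p = 0.000512, edgeR) in wild type and -2.96 ± 0.18 (adjusted p = 2.5e-08, edgeR) in humanized embryos. Without replicate 1 the wild type value was -2.87 ± 0.22. Wnt8b (chr19:44481907-44502712, plus strand) stood at 58.5, 75.6, 30.0 and 49.7 CPM in wild type at E11.5 and at 7.31, 4.02, 3.88 and 3.54 CPM at E17.5. The humanized libraries gave 76.6, 35.7, 54.0 and 27.2 CPM and then 3.62, 6.12, 3.93 and 4.83 CPM. The E11.5 libraries spread widely in both genotypes, but the stages did not overlap. Wnt8b fell by 3.52 on the log2 scale in wild type (SE 0.34, adjusted p = 1.12e-05, edgeR) and had a log2 fold change of -3.39 in humanized embryos (SE 0.31, adjusted p = 8.54e-07, edgeR). With single libraries left out, the wild type log2 fold change of Wnt8b ran from -3.83 to -3.3.

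Wnt3, a canonical ligand of the dorsal neural tube and thalamus (chr11:103664976-103708853, plus strand), had the smallest log2 fold change. It stood at 37.6, 35.8, 30.5 and 27.7 CPM in wild type at E11.5 and at 36.2, 19.5, 17.8 and 17.9 CPM at E17.5. Its humanized libraries stood at 46.7, 33.4, 34.2 and 27.5 CPM and then at 18.6, 16.8, 17.7 and 18.4 CPM. The humanized stages were separate, whereas in wild type a single E17.5 library, replicate 1, lay among the E11.5 values and the other 3 lay below them. The log2 fold change was -0.53 ± 0.25 (adjusted p = 0.0969, edgeR) in wild type and -0.99 ± 0.15 (adjusted p = 6.2e-05, edgeR) in humanized embryos. Without replicate 1 the wild type value was -0.86 ± 0.14 (adjusted p = 0.000151, edgeR). The difference between the genotypes' stage changes did not pass the test (interaction -0.46 ± 0.31, adjusted p = 0.468, edgeR).

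Axin2 and Lef1, both used as readouts of canonical signalling, fell at every comparison of the stages. Axin2, a scaffold of the beta-catenin destruction complex and a feedback inhibitor (chr11:108811169-108841609, plus strand), stood at 148, 160, 126 and 141 CPM in wild type at E11.5 and at 57.5, 42.4, 40.9 and 41.8 CPM at E17.5. The humanized values were 194, 158, 166 and 143 CPM and then 40.5, 38.2, 46.6 and 41.6 CPM. All E17.5 libraries lay well below the E11.5 ones, and the fall was 3.17-fold in wild type (log2 -1.66 ± 0.18, adjusted p = 2.31e-05, edgeR) and 3.99-fold in humanized embryos (log2 -2.0 ± 0.12, adjusted p = 2.06e-08, edgeR). With single libraries left out, the wild type log2 fold change of Axin2 ran from -1.8 to -1.6. Lef1, a TCF/LEF factor that recruits beta-catenin to DNA (chr3:130903919-131018005, plus strand), stood at 89.7, 95.2, 75.6 and 92.2 CPM in wild type at E11.5 and at 50.3, 36.3, 39.3 and 43.0 CPM at E17.5. In humanized libraries it stood at 87.2 to 102 CPM and then at 34.6 to 39.4 CPM. The stages did not overlap, and Lef1 fell by 1.07 on the log2 scale in wild type (SE 0.17, adjusted p = 0.000369, edgeR) and by 1.37 in humanized embryos (SE 0.10, adjusted p = 9.93e-08, edgeR). Lef1 overlaps Lef1os1 on the opposite strand, and with strand its count was 132% of the count without strand. The counting sets aside reads that overlap several genes.

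Lmx1a, the LIM-homeodomain factor that specifies the roof plate (chr1:167516677-167676310, plus strand), also fell in both genotypes. It stood at 70.0, 68.4, 54.0 and 61.0 CPM in wild type at E11.5 and at 17, 16.1, 13 and 13.3 CPM at E17.5. The humanized libraries stood at 59.0 to 70.9 CPM and then at 14.7 to 17.4 CPM. The stages were widely separate. Lmx1a fell 4.28-fold in wild type (log2 -2.10 ± 0.18, adjusted p = 4.82e-06, edgeR) and 3.92-fold in humanized embryos (log2 -1.97 ± 0.11, adjusted p = 1.84e-08, edgeR). At E17.5 it still had 262 to 326 reads in every library, unlike Wnt1 and Wnt3a.

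The R-spondins, secreted ligands of the Lgr receptors, fell in both genotypes. Rspo1 (chr4:124879876-124902892, plus strand) stood at 17.1, 17, 14.8 and 14.6 CPM in wild type at E11.5 and at 2.09, 1.90, 2.38 and 1.56 CPM at E17.5. Its humanized libraries stood at 13.4 to 24.0 CPM and then at 1.01 to 2.47 CPM. The stages did not overlap, and the fall was 8.04-fold in wild type (log2 -3.01 ± 0.20, adjusted p = 1.22e-06, edgeR) and 11.3-fold in humanized embryos (log2 -3.50 ± 0.27, adjusted p = 1.88e-07, edgeR). Rspo2 (chr15:42877439-43034706, minus strand) stood at 43.6, 42.4, 33.6 and 38.8 CPM in wild type at E11.5 and at 5.69, 8.36, 6.81 and 8.0 CPM at E17.5. The humanized libraries stood at 52.3, 29.5, 30.7 and 33.3 CPM and then at 6.45, 7.15, 9.43 and 6.11 CPM. Humanized E11.5 replicate 1 was the highest library, and every E17.5 library was far below the E11.5 ones. Rspo2 fell 5.51-fold in wild type (log2 -2.46 ± 0.19, adjusted p = 2.95e-06, edgeR) and 5.03-fold in humanized embryos (log2 -2.33 ± 0.21, adjusted p = 7.26e-07, edgeR).

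**Figure D2:**
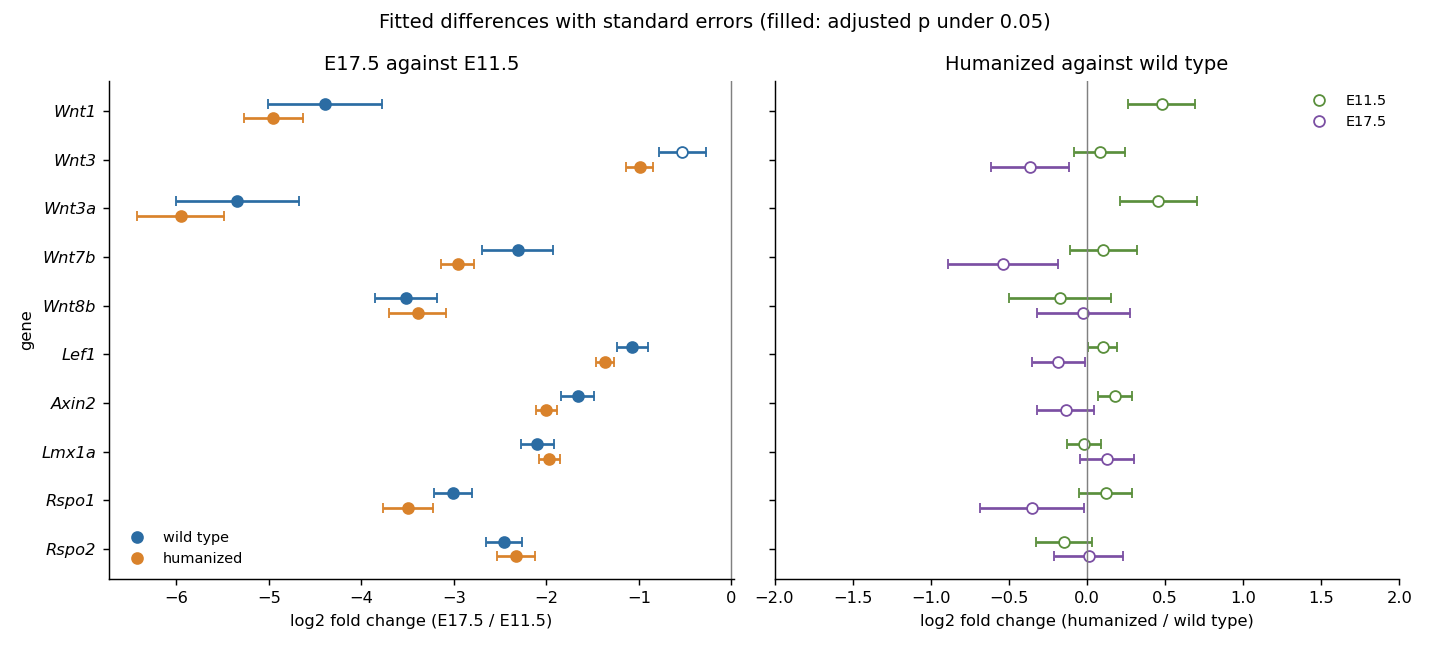
Fitted log2 fold changes (x axes) of the 10 genes (y axis) with their standard errors: left, E17.5 against E11.5 in wild type and humanized embryos; right, humanized against wild type at each stage. Filled circles passed an adjusted p of 0.05 (edgeR); all stage values lie below 0, from -0.53 to -5.95, and every genotype value is open, with Wnt1 and Wnt3a not tested at E17.5.

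Levels of different genes were compared per length, as RPKM, the CPM value divided by the exon length in kilobases. In wild type at E11.5 the order of the mean levels was Axin2 (22.4 ± 2.24 RPKM, SD, n = 4), Wnt7b (22.4 ± 6.46), Lmx1a (17.8 ± 2.07), Wnt8b (15.8 ± 5.61), Lef1 (15 ± 1.47), Wnt3 (10.5 ± 1.46), Rspo1 (7.27 ± 0.63), Rspo2 (3.69 ± 0.42), Wnt1 (1.90 ± 0.55) and Wnt3a (1.73 ± 0.39). The ranges of neighbours overlapped among the first 5 genes and between Wnt1 and Wnt3a, and the steps from Lef1 down to Wnt1 were free of overlap. At E17.5 Wnt3 (7.27 ± 2.84 RPKM), Lef1 (7.16 ± 1.03) and Axin2 (7.12 ± 1.23) led in wild type, with overlapping ranges. Wnt7b (4.55 ± 2.88) and Lmx1a (4.18 ± 0.57) followed, then Wnt8b (1.39 ± 0.52), Rspo1 (0.91 ± 0.16) and Rspo2 (0.67 ± 0.11), and Wnt1 (0.09 ± 0.11) and Wnt3a (0.04 ± 0.06) came last. The first place of Wnt3 rested on replicate 1, with 11.52 RPKM. In the other 3 wild type libraries Wnt3 had 6.21, 5.65 and 5.70 RPKM, each below Axin2 in the same library (6.62, 6.38 and 6.51 RPKM). The place of Wnt7b above Lmx1a also rested on replicate 1, with 8.86 against 4.79 RPKM. In the other 3 Wnt7b had 2.94, 3.36 and 3.02 RPKM, each below Lmx1a in the same library (4.53, 3.66 and 3.74 RPKM). In humanized E17.5 embryos, which do not hold replicate 1 of the wild type, Axin2 (6.5 ± 0.56 RPKM), Lef1 (6.34 ± 0.34) and Wnt3 (5.69 ± 0.25) were again the leading genes. There Lmx1a (4.59 ± 0.33) stood above Wnt7b (3.16 ± 0.48).

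None of the 10 genes passed the test between humanized and wild type embryos, at either stage, by edgeR. At E11.5 0 of 10 genes were called, with 0% of 17816 genes called by edgeR; 1058 genes had an unadjusted p under 0.05, and DESeq2 called 2. At E17.5 0 of the 8 genes tested were called, with 0% of 18763 genes called by edgeR, 207 at an unadjusted p under 0.05 and 1 called by DESeq2. Wnt1 and Wnt3a had too few reads to be tested at E17.5. For the interaction of genotype and stage 0 of 10 were called, with 0% of 20234 genes called by edgeR, 1610 at an unadjusted p under 0.05 and 0 called by DESeq2. The largest genotype differences at E11.5 were those of the low Wnt1 and Wnt3a. Wnt1 stood at 3.64, 5.56, 3.18 and 5.71 CPM in wild type and at 5.74, 6.23, 8.16 and 5.61 CPM in humanized libraries, a log2 fold change of 0.48 ± 0.22 (adjusted p = 0.577, edgeR). Wnt3a stood at 4.35, 6.25, 3.69 and 4.82 CPM in wild type and at 8.70, 4.88, 8.58 and 4.63 CPM in humanized libraries, a log2 fold change of 0.46 ± 0.25 (adjusted p = 0.577, edgeR). In both genes the genotypes overlapped. The other 8 genes had log2 fold changes between -0.17 for Wnt8b and 0.18 for Axin2 at E11.5. At E17.5 the tested genes lay between -0.54 ± 0.35 for Wnt7b and 0.13 ± 0.18 for Lmx1a, and the value of Wnt7b was 0.02 without wild type replicate 1.

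Markers of other cell types and regions moved with the stage and with single libraries. Neural progenitor markers (Sox2, Nes, Hes5, Vim, Mki67 and Top2a) summed to 4000 to 4600 CPM at E11.5 and to 524 to 799 CPM at E17.5, and 6 of 6 fell in wild type. Neuron markers summed to 1260 to 2000 CPM and then to 5250 to 6450 CPM, and 5 of 6 rose. Meningeal markers summed to 1390 to 1900 CPM at E11.5 and to 364 to 759 CPM at E17.5, with 5 of 7 lower and 2 higher. Choroid plexus markers went from 19.1 to 44.4 CPM up to 126 to 542 CPM, with 5 of 9 called higher and 4 not called in wild type, and 4 higher, 1 lower and 4 not called in humanized embryos. These counts stand beside 26.7% of all genes called lower and 29.0% called higher in wild type. In humanized embryos 39.5% were called lower and 38.2% higher, and the 4 of 9 choroid plexus markers called higher there lay near that share. The part of these cell types in the falls of the 10 genes was not tested. E17.5 wild type replicate 1 had the highest E17.5 sums of meningeal (759 CPM, against 442 to 503 in the other wild type libraries), endothelial (437 against 238 to 293), microglial (68.9 against 32.5 to 34.0), red blood cell (985 against 234 to 444), telencephalon (105 against 67.4 to 70.7) and neural progenitor markers (799 against 524 to 595). The summed CPM of the 5 Wnt ligands was 86.5 in that library and 35.9 to 37.8 in the others. The part of those cells in the Wnt3 and Wnt7b values of replicate 1 was not tested.

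Within a stage and genotype, the libraries with more of one gene tended to have more of some others. These correlations are over the 16 libraries after subtracting each group's mean log2 CPM, share library and dissection, and are given as a description. The closest pairs among the 10 genes were Wnt7b with Axin2 (Pearson r = 0.92), Wnt3 with Axin2 (0.88), Wnt3 with Wnt7b (0.87) and Wnt7b with Lef1 (0.83). Without E17.5 wild type replicate 1 the same pairs had r = 0.87, 0.78, 0.66 and 0.70. Among 14827 protein-coding genes, Rspo2 deviated most like Clic6 (r = 0.84) and Ttr (r = 0.83), both genes of the choroid plexus, and without replicate 1 of the E17.5 wild type these were 0.89 and 0.89. The summed choroid plexus markers, which include both, had r = 0.78 with Rspo2 and 0.57 with Rspo1, and 0.82 and 0.58 without that library. Sums of other cell types and regions moved with some of the genes and against others. Microglia markers had r = 0.87 with Wnt7b, 0.81 with Wnt1 and 0.81 with Wnt3, and without that library 0.61, 0.55 and 0.41. Meningeal markers had r = 0.84 with Wnt7b and 0.79 with Axin2 (0.63 and 0.60 without it), and red blood cell markers had 0.83 with Wnt7b (0.63 without it). Midbrain and hindbrain markers had r = -0.44 with Wnt3, -0.55 with Wnt8b, -0.41 with Axin2 and -0.605 with Rspo2. Without that library these were -0.84, -0.67, -0.64 and -0.615. Of the 10 genes only Wnt1 had a positive r with that list (0.267, and 0.275 without that library). Neural progenitor markers had r = 0.26 with Lef1, but -0.85 without that library. Humanized E11.5 replicate 1, the highest Rspo2 library of its group, had 77 Ttr reads where the other E11.5 libraries had 0 to 19. Wnt8b deviated most like Smug1 (r = 0.87) and Nkx2-1 (r = 0.87), the latter a transcription factor of the hypothalamus. The nearest genes, each picked as the highest of 14827, were Zfp423 (r = 0.97) and Mgrn1 (0.97) for Wnt7b and Rab31 (0.95) and Supv3l1 (0.94) for Wnt3. For Wnt1 they were Trabd2b (0.93) and Dnase2a (0.92), and for Wnt3a Gstm2 (0.93) and Slc16a10 (0.92). At E17.5 Wnt1 had 0 to 11 reads in a library and Wnt3a 0 to 7. All correlations given here for Wnt1 and Wnt3a therefore rest in part on single reads. The nearest genes were Mrps12 (0.96) and Selenom (0.94) for Lef1, Ezr (0.96) and Fam219b (0.95) for Axin2, Mical3 (0.89) and Zfhx2 (0.87) for Lmx1a, and Ccdc17 (0.93) and Ndor1 (0.87) for Rspo1. All 4 nearest genes of Wnt3 and Wnt7b had a lower r without replicate 1, for example Rab31 at 0.87 and Zfp423 at 0.93. The r was also lower without it for Wnt1 (0.86 and 0.844), Wnt3a (0.867 and 0.858) and Lef1 (0.942 and 0.905). The same held for Axin2 (0.929 and 0.933) and Wnt8b (0.852 and 0.855). Without it r was 0.905 and 0.863 for Lmx1a and 0.928 and 0.883 for Rspo1.

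The rest of the pathway moved in both directions in wild type, and its counts stand beside 26.7% of all genes called lower and 29.0% called higher. Of 14 other Wnt ligands 9 were tested, and the shares called were close to those of all genes: 3 fell, namely Wnt5b (log2 -2.71), Wnt5a (-1.41) and Wnt9a (-1.17), and 3 rose, namely Wnt11 (1.91), Wnt9b (1.72) and Wnt4 (1.62). Of 15 receptors 8 fell, led by Fzd10 (-3.07), Fzd2 (-2.95) and the coreceptor Lrp5 (-1.85), and 1 rose, Fzd5 (2.18). In the R-spondin axis 3 of 6 tested fell, the receptor and target Lgr5 (-2.50), Rspo3 (-0.81) and the ligase Znrf3 (-0.72), and the receptor Lgr6 rose (3.82). Secreted inhibitors were divided. Of 11 tested 5 fell, led by Dkk1 (-3.46), Dkk2 (-2.95) and Frzb (-2.16), and 3 rose, Sfrp5 (5.0), Wif1 (3.29) and Dkk3 (0.86). Wls, which carries Wnt proteins to the cell surface, fell (-1.73), and Porcn, which lipidates them, rose (0.89).

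Inside the cell 3 of 11 cytoplasmic components fell, a share close to that of all genes, Dvl2 (-1.27), Ctnnb1 (-1.07), which encodes beta-catenin, and Dvl3 (-0.63), and Apc rose (2.54). Of 7 TCF factors and nuclear partners Tcf7l1 (-2.27) and Tcf7 (-1.43) fell and Pygo1 rose (0.83). Of 6 other feedback targets 4 fell, led by Ccnd1 (-3.29), a cyclin, Sp5 (-2.60) and Apcdd1 (-1.55). Of 10 other roof plate and dorsal midline genes 6 fell, led by Msx2 (-6.02), Gdf7 (-3.48) and Msx1 (-3.17), and Zic4 (1.62) and Zic1 (0.69) rose. Gdf7, a BMP ligand of the roof plate, had 9 to 22 reads at E11.5 and 0 to 4 at E17.5. List medians ran from -1.51 for the feedback targets to 0.01 for the cytoplasmic components, beside -0.01 over all genes tested. All named genes passed an adjusted p of 0.05 by edgeR over all genes. Without replicate 1, 36.3% of all genes were called lower. The calls in that direction were 4 of 9 ligands tested, 8 of 15 receptors, 3 of 6 genes of the R-spondin axis and 7 of 12 inhibitors. Inside the cell they were 4 of 11 cytoplasmic components, 4 of 7 nuclear partners and 5 of 6 feedback targets, and 6 of 10 roof plate genes were called lower. The shares of the ligands and cytoplasmic components were close to that of all genes.

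**Figure D3:**
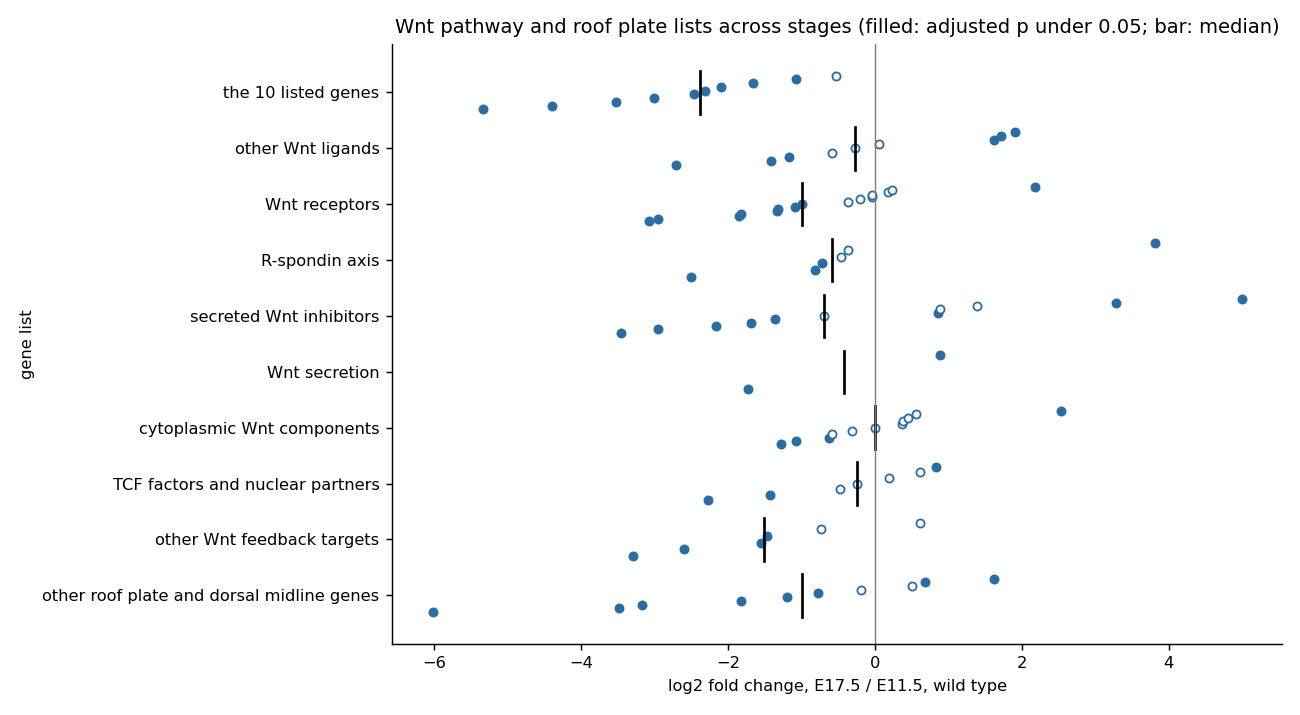
Fitted log2 fold change between E17.5 and E11.5 in wild type (x axis) of each tested gene in the 10 listed genes and 9 further Wnt and roof plate lists (y axis). Filled circles passed an adjusted p of 0.05 (edgeR) and the black bar is the list's median; the 10 listed genes lie wholly below 0 with a median of -2.38, and the other lists reach from -6.02 (Msx2) to 5.0 (Sfrp5).

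The 250 bases upstream of the annotated starts differed widely in sequence. They were read from the GRCm39 genome for all 10 genes, and 4 are shown as examples of promoters with different marks, described next. Wnt1 and Wnt8b had an H3K4me3 peak at E11.5 but not in every list at E17.5. Axin2 had the strongest H3K4me3 and no H3K27me3 within 1000 bp of its start. Rspo2 carried both marks in every list, as did most of the 10 genes. Each sequence is 5′ to 3′ on the strand of its gene, with the CpG dinucleotides in capitals.
Wnt1 (chr15:98687488-98687737, plus strand): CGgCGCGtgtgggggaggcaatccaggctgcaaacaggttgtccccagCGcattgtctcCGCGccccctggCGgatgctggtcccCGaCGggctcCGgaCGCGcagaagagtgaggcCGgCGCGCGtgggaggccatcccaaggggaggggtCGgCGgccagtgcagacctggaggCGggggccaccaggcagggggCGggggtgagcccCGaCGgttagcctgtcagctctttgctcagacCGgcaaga
Axin2 (chr11:108810919-108811168, plus strand): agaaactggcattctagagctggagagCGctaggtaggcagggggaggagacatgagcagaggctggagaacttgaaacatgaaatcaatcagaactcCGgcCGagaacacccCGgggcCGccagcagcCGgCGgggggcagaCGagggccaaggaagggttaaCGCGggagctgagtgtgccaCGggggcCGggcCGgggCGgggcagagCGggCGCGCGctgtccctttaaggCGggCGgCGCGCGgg
Wnt8b (chr19:44481657-44481906, plus strand): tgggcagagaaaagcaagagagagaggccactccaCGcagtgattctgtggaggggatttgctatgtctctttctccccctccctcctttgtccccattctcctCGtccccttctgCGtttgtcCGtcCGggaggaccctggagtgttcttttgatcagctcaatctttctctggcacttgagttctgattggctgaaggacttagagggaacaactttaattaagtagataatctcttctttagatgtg
Rspo2 (chr15:43034707-43034956, minus strand): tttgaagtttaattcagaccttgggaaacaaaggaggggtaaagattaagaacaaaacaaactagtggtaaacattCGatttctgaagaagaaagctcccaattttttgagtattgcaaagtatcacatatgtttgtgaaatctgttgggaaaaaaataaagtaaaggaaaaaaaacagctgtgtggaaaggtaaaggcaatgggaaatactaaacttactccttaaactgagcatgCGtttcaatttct
Wnt1 and Axin2 had 23 CpGs each, with a GC content of 71.6% and 67.6%. Wnt8b had 5 CpGs (48.8% GC) and Rspo2 had 2 (33.2% GC). The densest was Wnt3a, with 41 CpGs and 86.8% GC, and Lmx1a (26), Wnt3 (22), Lef1 (9), Rspo1 (9) and Wnt7b (6) lay between. A GC content of at least 50% with an observed to expected CpG ratio of at least 0.6 was met by 5 of the 10 genes (Wnt1, Wnt3, Wnt3a, Axin2 and Lmx1a), beside 27.1% of 21757 protein-coding genes. TCF/LEF type motifs, the letters CTTTG followed by AA, AT, TA or TT on either strand, occurred in 2 of the 10 windows, Rspo1 at 214 bp and Rspo2 at 224 bp from the start, beside 16.2% of all windows. Axin2 and Lef1 had no match in these 250 bases. Only the outermost annotated start of each gene was used. Wnt7b has 5 annotated transcript starts, Axin2 4, Rspo2 3, and Lef1 and Lmx1a 2 each, and the sequence before the inner starts was not read.

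Promoter peaks were counted where a peak had at least 1 bp within 1000 bp of the annotated start. H3K4me3, the mark of active and poised promoters, was present at all 10 starts in every wild type list at E11.5 (60.4% of all protein-coding starts) and at 8 of 10 at E17.5 (60.6% of all starts). The 2 exceptions were Wnt1 and Wnt8b. At Wnt1 the fold enrichment over local background was 3.22 and 4.97 at E11.5, the lowest of the 10 genes, and no list had a peak within 1000 bp at E17.5. Each E17.5 list still had an H3K4me3 peak farther into the gene, where the E11.5 lists also had one, starting between 2408 and 2508 bp downstream of the Wnt1 start, and 2 of the 3 reached the wider window of 2500 bp. At Wnt8b it was 12.1 and 9.56 at E11.5, over peaks of 5234 and 5035 bp, and a single E17.5 list kept a peak, with an enrichment of 2.81 and a width of 326 bp. Wnt3a kept a peak in every list, but its enrichment went from 16.5 and 15.2 to 5.70, 8.07 and 6.96, and its width from 2714 and 2418 bp to 704, 778 and 625 bp. Lmx1a, Rspo1 and Axin2 also had lower enrichment in every E17.5 list than in any E11.5 list.

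The other H3K4me3 promoters had a peak in every list at both stages. Axin2 had the highest of the 10 genes, with 74.0 and 74.9 at E11.5 followed by 66.5, 71.7 and 70.3 at E17.5, while its peak went from a mean of 11215 bp to 6383 bp. Rspo2 had 41.4 and 37.0 at E11.5, then 50.9, 42.8 and 58.3 at E17.5, so that its E17.5 lists were all higher while its RNA fell. Lmx1a went from a mean of 29.5 to 18.4 and Rspo1 from 22.3 to 16.2, and Wnt3, Wnt7b and Lef1 had means of 30.3, 48.6 and 44.8 at E11.5 and of 30.5, 47.9 and 39.4 at E17.5. No test was made between the stages for the peaks. With 2 lists against 3 the smallest 2-sided p that an exact test allows is 0.2, and no model was fitted to the enrichments. Over the 8 genes with a peak in every list the median ratio of enrichment, E17.5 to E11.5, was 0.91, beside 1.14 over 12941 protein-coding genes. For peak width it was 0.58 beside 1.01. In each measure 7 of the 8 were below the median of all genes, the exception being Rspo2 for enrichment (1.29) and Lef1 for width (1.11).

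**Figure D4:**
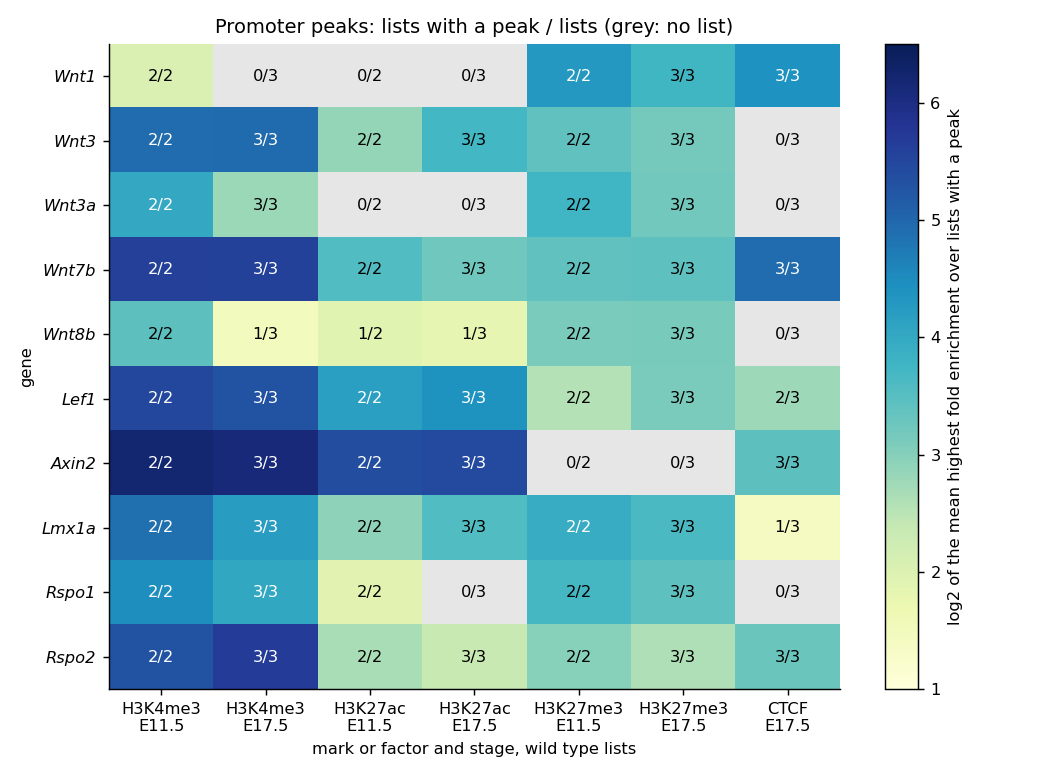
Promoter peaks of the 10 genes (y axis) by mark and stage in the wild type lists (x axis). Each cell gives the lists with a peak within 1000 bp of the start out of all lists, the colour is log2 of the mean highest fold enrichment over lists with a peak, and grey cells have none; H3K27me3 is present in every list for all genes except Axin2, and H3K4me3 is lost or reduced to 1 of 3 lists at E17.5 for Wnt1 and Wnt8b.

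H3K27ac, a mark of active promoters and enhancers, was present in every list at 7 of 10 starts at E11.5 (44.8% of all starts) and at 6 of 10 at E17.5 (54.4% of all starts). Wnt1 and Wnt3a had none at either stage, although Wnt3a had one within 2500 bp in 2 of 2 lists at E11.5 and in 0 of 3 at E17.5. Wnt8b had a peak in 1 list of each stage, with an enrichment of 3.75 and 3.51. Rspo1 had weak peaks at E11.5, at 4.27 and 3.17, and none within 1000 bp at E17.5, although all 3 lists had one within 2500 bp. Axin2 again stood highest, at 46.4 and 36.4 and then 38.4, 43.2 and 48.8. Lef1 had means of 18.0 and 20.9, Wnt3 of 7.24 and 13.1, Lmx1a of 7.53 and 11.9, Wnt7b of 11.9 and 9.27, and Rspo2 of 6.30 and 5.04. Over these 6 genes the median ratio of enrichment, E17.5 to E11.5, was 1.11, beside 2.04 over 9542 protein-coding genes, and all 6 were below that median. The antibody lot also binds H2BK5ac, so these peaks can hold both acetylations, and the number of H3K27ac peaks per wild type list went from between 32418 and 36150 at E11.5 to between 62720 and 77419 at E17.5.

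H3K27me3, the mark set by Polycomb repressive complexes, covered 9 of the 10 starts in every list at both stages, beside 18.7% of all starts at E11.5 and 18.7% at E17.5. The exception was Axin2, with 0 of 2 and 0 of 3 lists, although in a window of 2500 bp all 3 E17.5 lists had a peak. The widest domains lay over Wnt8b, at 47486 and 38903 bp at E11.5 and 43924 to 47928 bp at E17.5, and over Wnt1, at 27306 and 26424 bp and then 43031 to 43550 bp. Wnt3a went from 12982 and 10344 bp to 36900, 25579 and 20200 bp, a mean 2.36 times as wide. The starts of all 3 of these ligands lay inside H3K27me3 at E11.5 already, when their RNA was counted in every library. In bulk pools the mark and the RNA can come from different cells, and whether they did was not tested. The narrowest was Rspo2, at 4570 and 4509 bp and then 6636 to 6686 bp. Enrichment was 19.6 on average over Wnt1 at the earlier stage, then 13.3, and Lef1 went the other way, from a mean of 5.90 to 8.65. Over the 9 genes the median ratio of width was 1.47 beside 1.35 over 3249 protein-coding genes, and that of enrichment 0.83 beside 0.85. The number of H3K27me3 peaks per wild type list also went from between 13850 and 19166 at E11.5 to between 27452 and 43700 at E17.5.

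CTCF, the insulator protein that anchors chromatin loops, had a promoter peak in every E17.5 wild type list at 4 of 10 starts, beside 32.2% of all starts. Wnt7b had the strongest, at a mean enrichment of 30.1 ± 4.63 (SD, n = 3), and Wnt1 followed with 17.2, 19.9 and 26.4. The Wnt1 peak spanned the start itself, from positions -566, -556 and -562 to 181, 458 and 174 bp, counted along transcription from the start. Axin2 (10.8 ± 3.02) and Rspo2 (9.73 ± 3.56) were weaker, Lef1 had a peak in 2 lists and Lmx1a in 1, and Wnt3, Wnt3a, Wnt8b and Rspo1 had none. Wnt1 at E17.5 thus carried CTCF and H3K27me3 at its start, without H3K4me3 or H3K27ac.

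**Figure D5:**
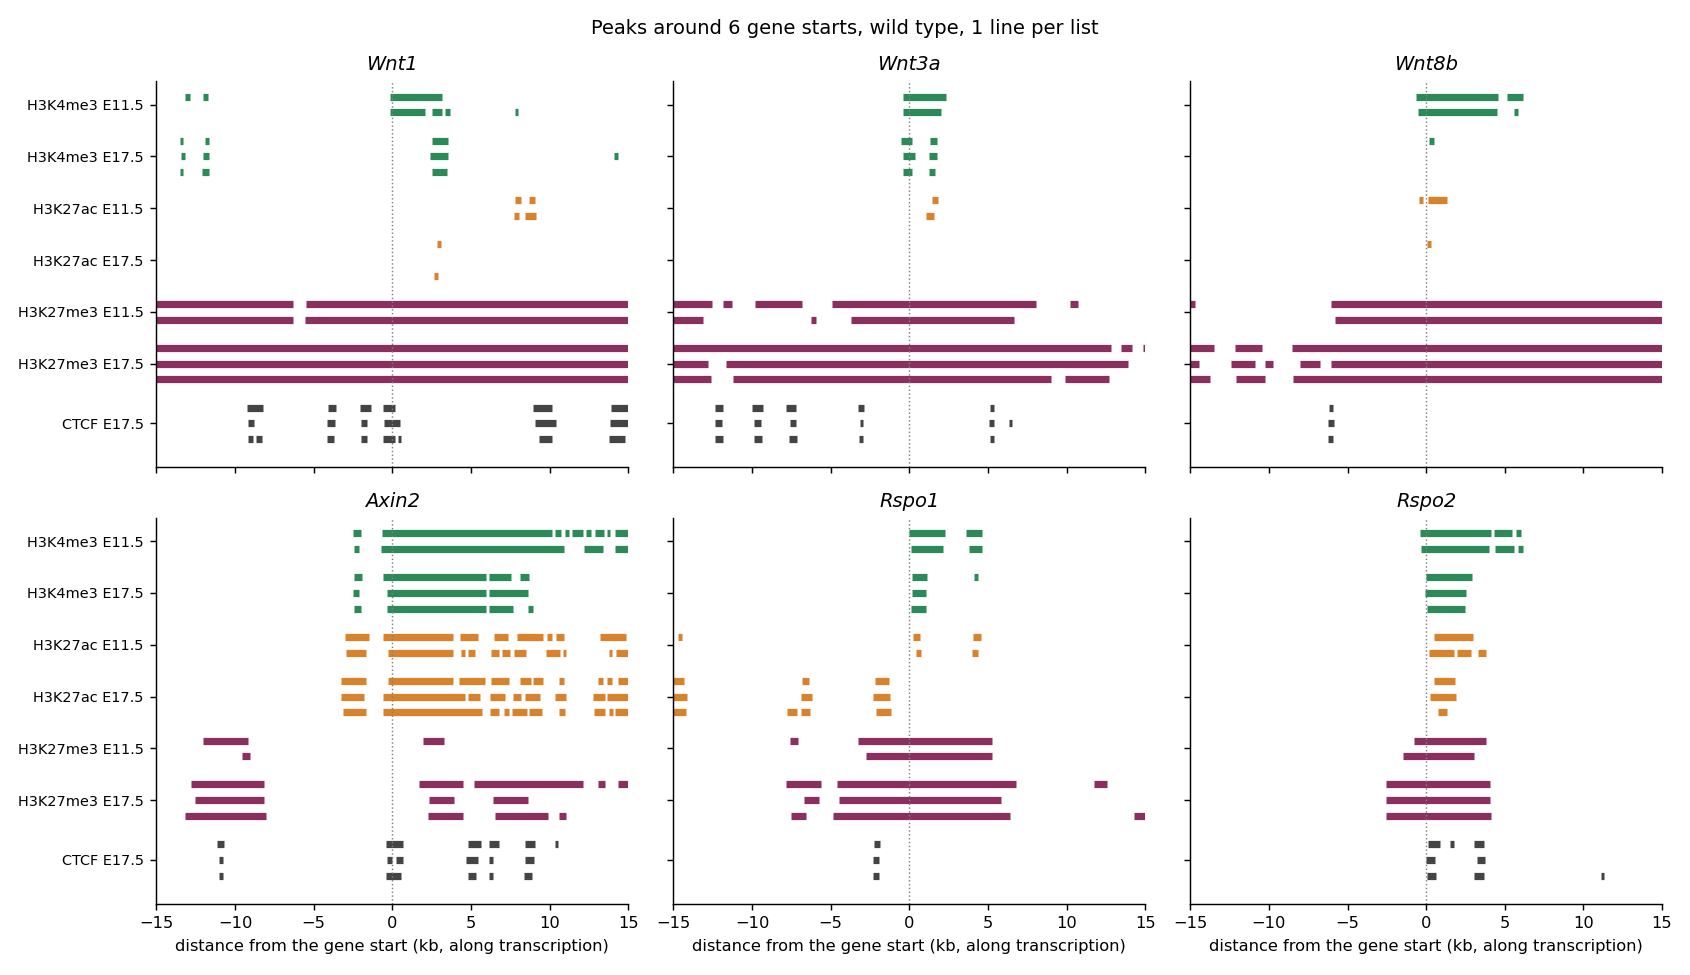
Peaks in the wild type lists within 15 kb of 6 gene starts; the x axis is the distance from the start along the direction of transcription in kb, and each row of bars is 1 list, grouped by mark and stage on the y axis. H3K4me3 shortens from E11.5 to E17.5 at Wnt3a, Wnt8b, Axin2, Rspo1 and Rspo2 and is absent from the start of Wnt1 at E17.5, while H3K27me3 spans the starts of all shown genes except Axin2.

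The humanized lists were read in the same way, with all starts counted outside chromosome 13, whose coordinates differ in the humanized genome. H3K4me3 was present in every humanized list at 10 of 10 starts at E11.5 (60.5% of all starts) and at 8 of 10 at E17.5 (60.4% of all starts), and the 2 exceptions were again Wnt1 and Wnt8b, with 0 of 3 lists each. Wnt3a went from a mean enrichment of 15.8 to 6.25. H3K27me3 was present at 9 of 10 starts at both stages (20.8% and 17.4% of all starts), Axin2 being without it in all 5 lists. H3K27ac was present in every list at 7 of 10 starts at E11.5 (45.9% of all starts) and at 5 of 10 at E17.5 (51.4% of all starts). Wnt8b had H3K27ac in both E11.5 lists, at a mean of 5.91, and in 0 of 3 at E17.5. Wnt3a had a peak in 1 of 2 lists at E11.5 (4.74) and in 0 of 3 at E17.5, and Rspo1 in 0 of 2 and in 1 of 3 (4.83). The genotypes were not tested against each other for these peaks. CTCF was present in every list at Wnt1, Wnt7b, Axin2 and Rspo2, 4 of 10 starts (28.4% of all starts), with means of 21.3, 35.6, 11.2 and 7.43.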

How the data were processed

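PolyA RNA of 16 diencephalon samples, and chromatin of diencephalon samples of the same stages and genotypes, were sequenced by the authors. The deposited counts are reads per gene that the authors made with STAR 2.7.9a on mm39 with a GENCODE basic annotation, and the count without regard to strand was used. Between 48.1 and 58.4% of reads were assigned to no gene and stayed out of library sizes. These also include unmapped reads, reads with several mapping places and reads that overlap several genes. The deposited peak lists give, per replicate, the fold enrichment (a ratio) and −log10 q that the authors' MACS2 2.2.7.1 wrote, after Bowtie2 2.4.2. How H3K27me3 peaks were called is not given in the sources used here, and the read depth behind the lists is unknown.

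Counts were tested with edgeR 4.0.16 (R 4.3.3; TMM scaling, filterByExpr, quasi-likelihood, Benjamini-Hochberg over all genes tested, threshold 0.05), with DESeq2 1.42.0 as an alternative, and the fits were tested on simulated data. Positions are GRCm39. The p-values measure the spread between pools from separate litters. The genes, lists and tests were chosen with earlier results of these data known. Named genes were the 10 genes, up to 3 per direction of each wider list with the largest called wild type stage change, the 2 protein-coding genes deviating most like each gene, and markers whose level moved with a gene. Alternatives were other scaling, filters, strand, samples, a replicate block and single libraries left out, and for peaks a window of 2500 bp, any transcript start, an overlap of 200 bp, only peaks with −log10 q from 5 up and single lists left out.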

Additional observations from a re-analysis of the deposited data

Results flagged for a closer look

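The 10 genes in 4 groups of libraries give 40 sets of 4 values, which share libraries and are not independent. In 5 of the 40 sets, 1 library lay farther from the other 3 than Dixon's 95% critical value allows. For a single set chance gives about 1 in 20, and the count of 5 cannot be judged against that. Of the 5, 4 were E17.5 wild type replicate 1. It had 36.2 CPM of Wnt3, where the other 3 had 17.8 to 19.5 CPM. It had 42.0 CPM of Wnt7b (others 13.9 to 15.9), 7.31 CPM of Wnt8b (others 3.54 to 4.02) and 57.5 CPM of Axin2 (others 40.9 to 42.4). The fifth was Rspo2 in E11.5 humanized replicate 1, at 52.3 CPM where the others had 29.5 to 33.3 CPM. That library also had the highest sum of choroid plexus markers at E11.5, 44.4 CPM, and its part in the Rspo2 value was not tested.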

How the results depend on the processing

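The stage calls kept their direction under all alternatives run, and the call of Wnt3 in wild type depended on the setting: it passed in a fit of all 16 samples (log2 -0.52, adjusted p = 0.0434, edgeR) and without E17.5 wild type replicate 1, with values of -0.86 to -0.42 as single libraries were left out. The count of all genes called by stage in wild type ran from 9147 to 13994. For genotype, DESeq2 called 2 genes at the earlier stage and 1 at the later, and the fit of all 16 samples called 1 at the earlier, where edgeR called 0. Small genotype values changed sign. At E11.5 Lmx1a was 0.00421 in the fit of all 16 samples, and at E17.5 Rspo2 was -0.0113 without the filter on low counts and Wnt8b 0.0107 with the replicate block. With single libraries left out, the E11.5 log2 values ran from -0.0859 to 0.0325 for Lmx1a, -0.0723 to 0.181 for Wnt3, -0.0667 to 0.295 for Wnt7b, -0.0608 to 0.217 for Rspo1 and -0.476 to 0.0375 for Wnt8b. At E17.5 they ran from -0.677 to 0.0172 for Wnt7b, -0.195 to 0.273 for Wnt8b and -0.116 to 0.107 for Rspo2. The interaction ran from -0.0929 to 0.436 for Wnt8b, -1.09 to 0.528 for Wnt1, -1.08 to 1.01 for Wnt3a and -0.018 to 0.358 for Rspo2. The cause was not tested. The labels do not say whether a shared replicate number marks a shared day or batch. The 16 correlations of same-numbered libraries ran from -0.45 to 0.484, with 6 over 0.1. Between the genotypes at E17.5 they were 0.466, 0.484, 0.0509 and 0.154 for replicates 1 to 4. There 4 of 8 libraries were most like the library of their own number, against 0 of 8 between the genotypes at E11.5. With the replicate block 9 and 10 genes were called by stage in wild type and humanized embryos, and 0 by genotype. Counts of promoters with a peak stayed within 1.5 times of their values in all settings run. The peaks of the 2 stages were not tested against each other.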
